A study of Mus musculus with 27 samples.

Results

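The neurofilament and axonal microtubule-binding genes described here are 10 of the 55487 genes in the count table. They are the neurofilament subunit genes Nefl, Nefm, Nefh and Ina, the microtubule-associated protein genes Map1b, Mapt, Map2 and Dcx, and the growth cone genes Gap43 and Stmn2. They were chosen by name, in part from the measured levels of Nefm and Map1b in the axon pieces of control embryos. The contrast of axon pieces with dorsal or ventral pieces in controls is therefore given as a description, with no test.

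RNA was sequenced from laser-captured pieces of the mouse optic stalk (OS) at embryonic day 14 (E14), in 27 libraries from 9 embryos. Each embryo gave a dorsal piece, a ventral piece and a piece rich in retinal ganglion cell (RGC) axons. The 5 mutant embryos (Smarcc1-DCT-cKO) were Baf155 loxP/loxP with Dct-Cre;Z/EG, where Baf155 is another name of Smarcc1, a scaffold protein of the chromatin remodeller SWI/SNF. The 4 controls were littermates without Dct-Cre, and all lines were kept on a C57Bl6/J background. Dct-Cre acts in the pigmented epithelium and optic stalk lineages, so the deletion is conditional and the axons belong to RGCs whose cell bodies lie in the retina. Batch A of the labels holds 1 control and 3 mutant embryos, and batch B holds 3 controls and 2 mutants.

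Neurofilaments are the intermediate filaments of neurons, built from light, medium and heavy chains (Nefl, Nefm, Nefh) together with alpha-internexin (Ina), and they fill and widen the axon. Microtubule-associated proteins hold the axonal tracks together, with Map1b and tau (Mapt) known mainly from axons, Map2 from cell bodies and dendrites, and doublecortin (Dcx) from newborn neurons. Gap43, a membrane protein, and Stmn2, a tubulin-binding protein, serve the growth cone of extending axons such as those that run through the stalk at this stage.

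The total count per library was 10.9 to 34.0 M counts, so that 1 read stood for 0.0294 to 0.0917 CPM (counts per M counts, where M is 1e+06). Axon libraries detected 9225 to 14118 genes and had 7.49 to 15.4% of their counts from mitochondrial genes, against 10881 to 16810 genes and 3.72 to 7.63% in the other pieces. The deleted gene Smarcc1 stood at 124 ± 88.7 CPM in control axon pieces and 18.3 ± 18.2 CPM in mutant ones (SD, n = 4 and 5), at 144 ± 97.9 and 54.5 ± 44.9 CPM in dorsal pieces, and at 130 ± 56.9 and 33.5 ± 19.6 CPM in ventral pieces. Control embryo 2 stood apart in its dorsal and ventral pieces, which held neuronal transcripts that most other dorsal and ventral pieces lacked. Comparisons that use the controls were also made without its 3 libraries, a choice made after seeing the data. The reads carry no molecular identifiers, so floors and ranges of counts cover counting error only.

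The axon label was checked against marker genes. Sncg, a synuclein abundant in RGCs, lay at 85.2 to 645 CPM in the 9 axon libraries and at 0 to 104 CPM in the 18 others. The RGC transcription factors gave no such signal in the axon pieces, where Pou4f2 and Pou4f3 were at 0 in all 9 libraries, Isl1 reached 3.20 CPM and Pou4f1 5.92 CPM. The sum of the 12 RGC markers overlapped, at 108 to 804 CPM in axon libraries and 8.99 to 578 CPM in the others. The 578 CPM came from the dorsal piece of control embryo 2. In mutants 7 of the 10 RGC markers tested had higher estimates in axon than in dorsal pieces, and 3 lower. Against ventral pieces 6 were higher and 4 lower. The axon pieces also held RNA of other cells, with Vim, an intermediate filament gene of progenitors and glia, at 2448 ± 1016 CPM in controls and 2053 ± 308 CPM in mutants. Over the 9 axon libraries the mesenchyme markers summed to 395 to 2504 CPM, led by Col3a1, the endothelial markers to 12.6 to 385 CPM, led by Kdr, and the red cell markers to 549 to 29630 CPM, led by Hbb-y. In such pieces fewer cells or axons of a type and less RNA in each cannot be told apart.

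A promoter sequence was held by the RefSeq table of GRCm38.p6 for 4 of the 10 genes, namely Ina, Map1b, Map2 and Dcx. The windows run from 250 bases before the start to 50 bases after it. The promoters of Map1b and Map2 are shown because in mutants every axon library lay above every ventral library for Map1b and below every ventral library for Map2. Capitals mark the GC box GGGCGG on either strand.
Map1b: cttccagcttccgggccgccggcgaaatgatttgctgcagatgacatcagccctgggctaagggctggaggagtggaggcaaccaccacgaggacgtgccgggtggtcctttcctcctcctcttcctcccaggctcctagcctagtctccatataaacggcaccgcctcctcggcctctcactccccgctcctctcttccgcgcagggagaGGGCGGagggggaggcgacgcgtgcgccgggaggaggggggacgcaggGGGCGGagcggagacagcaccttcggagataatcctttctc
Map2: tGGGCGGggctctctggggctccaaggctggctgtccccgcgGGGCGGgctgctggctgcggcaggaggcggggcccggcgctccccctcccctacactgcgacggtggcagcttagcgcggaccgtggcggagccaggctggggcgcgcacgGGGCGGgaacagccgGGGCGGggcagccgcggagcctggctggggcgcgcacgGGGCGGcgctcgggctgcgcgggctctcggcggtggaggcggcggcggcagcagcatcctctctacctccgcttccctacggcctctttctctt
The Map1b window lies at chr13:99516553-99516852 on the minus strand and the Map2 window at chr1:66175079-66175378 on the plus strand. The Map1b window held 2 GC boxes and 65.7% G or C, and the Map2 window held 5 GC boxes and 77.7% G or C. Among 32851 promoter windows of this length 35.7% held at least 1 GC box, and the median G or C content was 52.7%. The Map1b window also held 1 TATAAA, found in 13.6% of windows, while that of Map2 held none. The Ina window held 2 GC boxes, and those of Dcx held none.

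Per kb of exon, the order of the 10 genes in the control axon pieces was led by Nefm with a mean of 166 CPM per kb, then Map1b with 112 and Gap43 with 88.6 CPM per kb. Stmn2 followed with 26.4, Nefl with 11.5 and Ina with 9.67 CPM per kb. Map2, Dcx and Mapt had 2.57, 0.98 and 0.81 CPM per kb, and Nefh had none. The mutant axon pieces had the same 4 leading genes, at 223 CPM per kb for Nefm, 166 for Map1b, 77.9 for Gap43 and 15.1 for Stmn2.

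**Figure D1:**
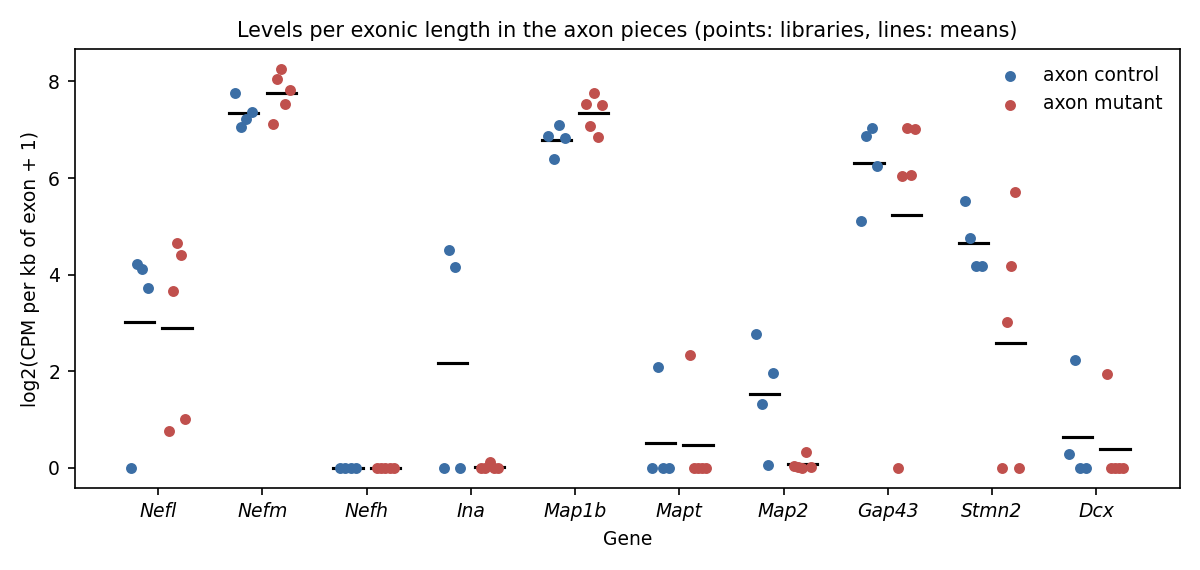
Levels of the 10 genes in the 4 control (blue) and 5 mutant (red) axon libraries, as log2(CPM per kb of exon + 1), with 1 point per library and a line at the mean of the log2 values. Nefm and Map1b are high in all 9 libraries, whereas each of the 8 other genes includes axon libraries at 0, with Nefh at 0 in all 9.

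Nefm and Map1b were the only members with counts in all 27 libraries. The number of libraries at 0 was 2 for Map2, 3 for Gap43, 10 for Stmn2, 12 for Nefl, 16 for Ina and Dcx, 18 for Mapt and 25 for Nefh. All but Nefh passed the filter of more than 10 counts in at least 3 libraries, so 9 of the 10 were tested. The map of all libraries shows these 2 continuous members beside the 8 others, whose libraries at 0 range from 2 to 25 of 27.

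**Figure D2:**
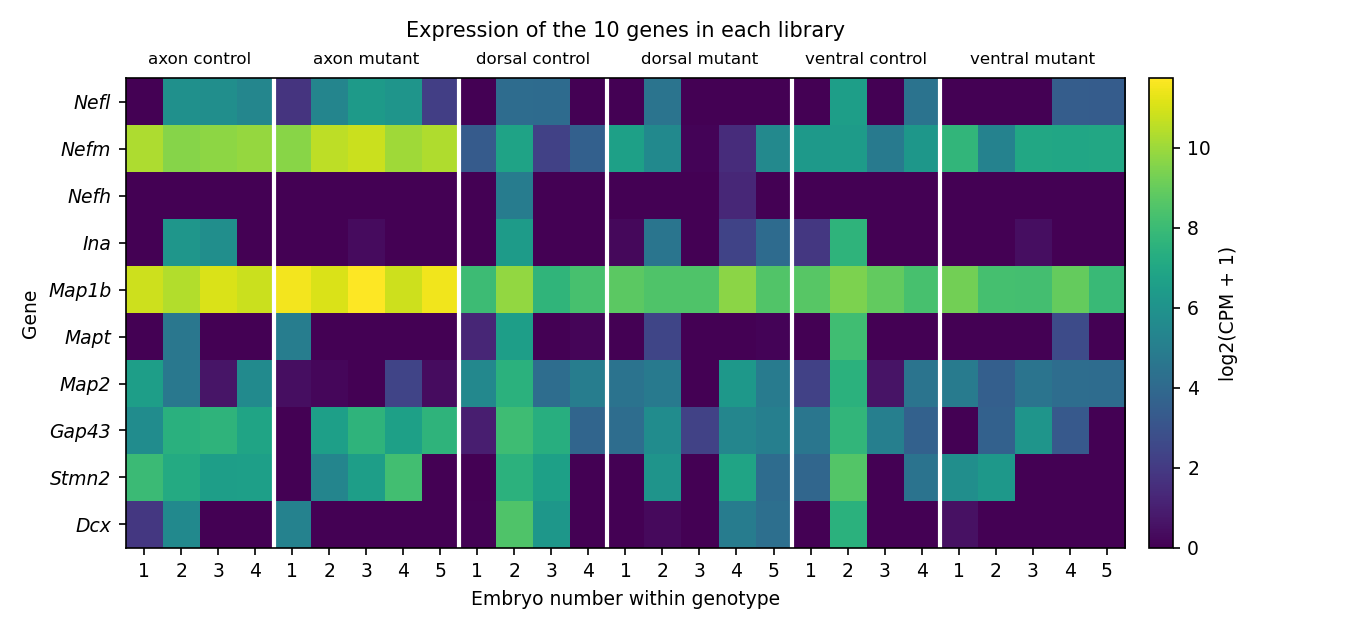
Level of each of the 10 genes (rows) in each of the 27 libraries (columns, numbered by embryo within genotype), coloured by log2(CPM + 1). Nefm and Map1b are brightest in all axon libraries, and the dorsal and ventral libraries of control embryo 2 show all or nearly all members.

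Nefm, the medium neurofilament chain, lies at chr14:68082590-68124846 on the minus strand (mm10). Its levels in the 4 control axon pieces were 1253, 767, 858 and 949 CPM. In the 5 mutant axon pieces they were 803, 1522, 1757, 1058 and 1309 CPM. These ranges overlap, but the mutants at 1309, 1522 and 1757 CPM were above the highest control. Dorsal pieces had 9.40, 113, 3.89 and 11.2 CPM in controls and 102, 46.9, 0.0707, 1.79 and 44.5 CPM in mutants. Ventral pieces had 79.5, 85.8, 27.9 and 72.1 CPM in controls and 212, 35.7, 129, 124 and 129 CPM in mutants. Every axon library was above every dorsal and ventral library in either genotype. By group mean the order was axon mutants (1290 ± 375 CPM), axon controls (957 ± 211), ventral mutants (126 ± 62.5), ventral controls (66.3 ± 26.2), dorsal mutants (39.1 ± 41.8) and dorsal controls (34.3 ± 52.4, SD). Neighbours in this order had overlapping ranges except axon controls and ventral mutants.

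In controls the mean of Nefm was 27.9 times higher in axon than in dorsal pieces and 14.4 times higher than in ventral pieces, which is a description, since these values helped to choose the gene. The dorsal mean was 8.18 ± 3.82 CPM (SD, n = 3) without control embryo 2, and the ratios were 125 and 17.0. The mutant libraries were not used for that choice. There Nefm was higher in axon than in ventral pieces by 3.55 ± 0.39 on the log2 scale (log2 fold change ± SE), with an edgeR adjusted p of 0.000522. The estimate was 3.43 to 3.67 but the call was lost in the fit of all 27 libraries (edgeR adjusted p = 0.131), within batch A (0.219), within batch B (0.156) and with limma voom (0.407). Axon against dorsal pieces of mutants gave 5.24 ± 1.45, which did not pass (edgeR adjusted p = 0.182). Nefm was called there by edgeR without dorsal mutant 3, a library with a single Nefm read (adjusted p = 0.0376), by edgeR in the fit of all 27 libraries (0.0271) and by DESeq2 (0.000465). In an exact permutation test on log2(CPM + 1) each of the contrasts reached p = 0.00794, the smallest that 5 against 5 libraries allow. Exact permutation p-values of single genes are unadjusted, here and below. Those between pieces permute libraries freely and ignore that both pieces come from the same embryos.

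Map1b, a long microtubule-associated protein of growing axons, lies at chr13:99421446-99516540 on the minus strand. The control axon pieces had 1832, 1316, 2165 and 1778 CPM. The mutant axon pieces had 2920, 2134, 3415, 1822 and 2883 CPM, and 3 of the 5 were above the highest control. Dorsal pieces had 259.7, 905, 203 and 319 CPM in controls and 441, 361, 367, 830 and 377 CPM in mutants. Ventral pieces had 410, 691, 486 and 318 CPM in controls and 604, 305, 301, 505 and 246 CPM in mutants. Outside the axon pieces Map1b was thus at 203 CPM or more in every library, whereas Nefm ranged there from 0.0707 to 212 CPM. Its group means were 2635 ± 645 CPM in axon mutants, 1773 ± 349 in axon controls, 476 ± 159 in ventral controls, 475 ± 201 in dorsal mutants, 422 ± 326 in dorsal controls and 392 ± 154 in ventral mutants. The last 4 did not differ beyond their spread, and all of them lay below the axon groups.

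The control mean of Map1b in axon pieces was 4.21 times that in dorsal pieces and 3.72 times that in ventral pieces, again as a description. The dorsal mean without control embryo 2 was 260.4 ± 58.0 CPM (SD, n = 3), and the ratios were 7.39 and 4.76. Among mutants Map1b rose from dorsal to axon pieces by 2.66 ± 0.25 log2 (edgeR adjusted p = 4.83e-05) and from ventral to axon pieces by 2.94 ± 0.26 (edgeR adjusted p = 0.000122). All 5 mutant embryos had more Map1b in the axon piece than in either other piece. Within batch A alone the log2 differences were 3.05 ± 0.21 and 2.97 ± 0.32, both called by edgeR, and within the 2 embryos of batch B they were 2.11 ± 0.46 and 2.86 ± 0.43, with edgeR adjusted p of 0.604 and 0.516. The limma voom fit did not call either contrast (adjusted p = 0.997 and 0.952), and its precision weights for Map1b differed widely among these libraries, from 3.84 to 7110000 in the fit against ventral pieces.

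**Figure D3:**
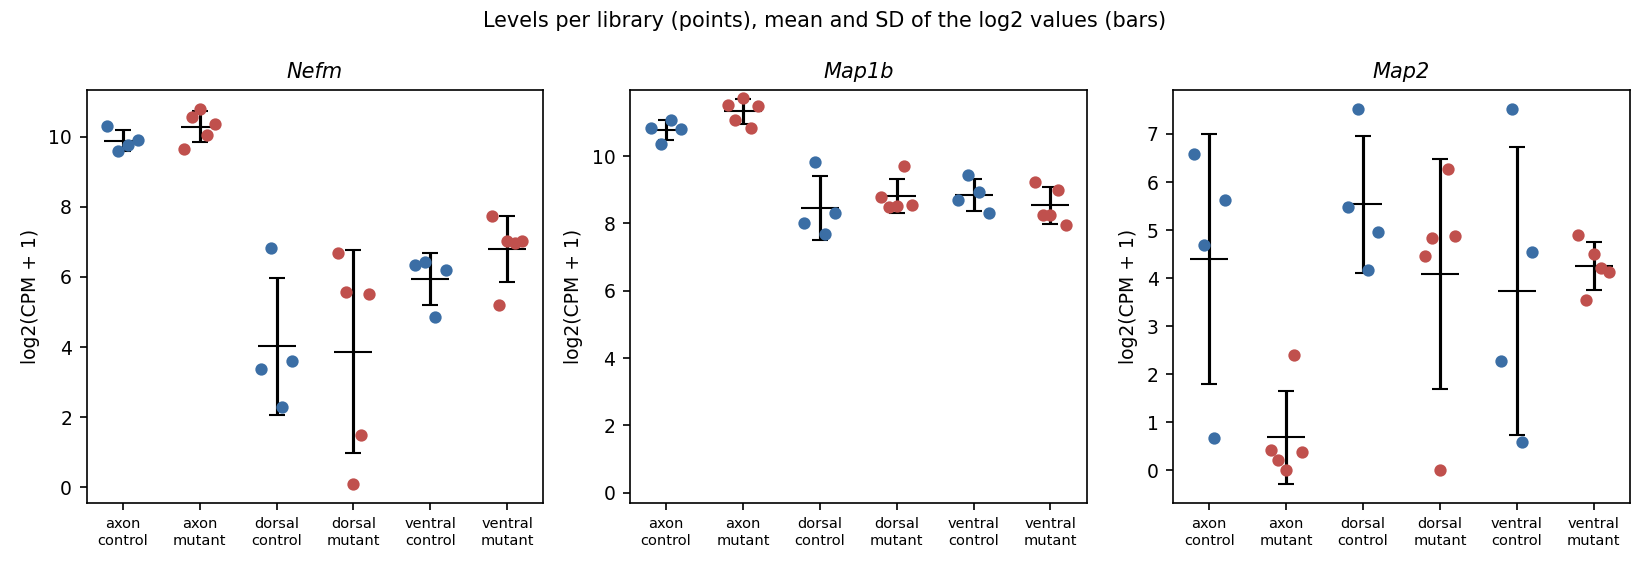
Levels of Nefm, Map1b and Map2 in the 6 groups as log2(CPM + 1), with 1 point per library (blue control, red mutant), the mean as a horizontal line and the SD as a bar. Axon libraries lie above all others for Nefm and Map1b, whereas for Map2 4 of the 5 axon mutants lie at or below 0.343 CPM.

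In the mutant contrasts, edgeR called 1 of the 9 tested members between axon and dorsal pieces (Map1b, higher), where 0.545% of all 15780 genes tested were called. It called 2 of 9 between axon and ventral pieces (Nefm and Map1b, both higher), against 0.443% of 15804 genes. Between dorsal and ventral pieces it called 0 members in mutants and 0 in controls, where the share of all genes called was 0% each time. At an unadjusted p under 0.05 edgeR gave 2 members in mutants (Ina and Dcx), where 12.4% of all genes passed, and 0 in controls, where 6.74% did. DESeq2 called 0 members in either, with 2.79% of all genes called in mutants and 1.39% in controls, and limma voom called 0, with 0.167% and 0.118%. DESeq2 called 4 members between axon and dorsal pieces of mutants (Nefm, Map1b, Ina and Map2) and 3 between axon and ventral pieces (Nefm, Map1b and Map2), where 9.94% and 8.48% of all genes were called. limma voom called Nefl alone in the former, with 4.61% of all genes called, and Map2 alone in the latter, with 3.8%. At an unadjusted p under 0.05 edgeR gave 3 and 2 members, where 23.5% and 21.8% of all genes passed. The 5 mutant embryos contribute a piece to each side. With the embryo as a block the called members were the same, and the calls over all genes fell from 86 to 42 and from 70 to 41.

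All axon libraries of controls lay above all their dorsal and ventral libraries for 76 of the 16330 genes that passed the filter (0.465%), and in mutants for 93 (0.57%). Nefm and Map1b were the only members among them in either genotype. In controls, and so over all 9 embryos, their place is a description only, since these levels helped to choose the members. The 22 genes that showed this over all 9 embryos were mixed in kind. They included the kinesin motor genes Kif1a and Kif5c and the intermediate filament gene Nes. Among them were also the ribosomal protein genes Rpl13, Rpl32, Rpl41, Rps7, Rps19, Rps23 and Rps29. Others were the ferritin gene Fth1, the respiratory chain gene Cox4i1 and the mitochondrial gene mt-Rnr1.

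Nefl, the light chain that neurofilaments need for assembly, lies at chr14:68083863-68089095 on the plus strand. Its levels were far below those of Nefm, at 0, 59.2, 55.2 and 41.5 CPM in control axon pieces and 2.35, 39.5, 82.0, 68.2 and 3.46 CPM in mutant axon pieces. Dorsal pieces had 0, 16.7, 16.5 and 0 CPM in controls, and of the 5 mutants only embryo 2 had counts, with 21.7 CPM. Ventral pieces had 0, 94.0, 0 and 20.9 CPM in controls and 0, 0, 0, 10.04 and 9.73 CPM in mutants. The groups overlapped throughout. Axon against ventral pieces of mutants had an exact permutation p of 0.0476 (edgeR adjusted p = 0.466), which was 0.05 within batches and 0.0556 and 0.0952 with pseudocounts of 0.1 and 5. Axon against dorsal pieces gave 0.0556, or 0.0238 with a pseudocount of 0.1, and limma voom called Nefl there as higher (adjusted p = 0.0385), while DESeq2 did not (0.558). The gene shares 1108 exonic bases with Nefm on the opposite strand, 32.8% of its exonic length and 19.2% of that of Nefm, and the kit does not mark strand, so reads in that stretch cannot be assigned.

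Ina, alpha-internexin, which precedes the other subunits in young neurons, lies at chr19:47014698-47025327. Control axon pieces had 0, 70.9, 54.5 and 0 CPM, and mutant axon pieces had 0 in 4 libraries and 0.272 CPM in 1. Ventral pieces of mutants were alike, with 0 in 4 libraries and 0.353 CPM in 1, whereas those of controls had 2.76, 196, 0 and 0 CPM. Dorsal pieces of mutants had 0.183, 22.4, 0, 4.14 and 16.4 CPM, and in those of controls only embryo 2 had counts, with 85.4 CPM. No genotype comparison of Ina passed with edgeR (adjusted p = 0.999 in ventral pieces and 0.911 in axon pieces), and the ventral one had an unadjusted p of 0.0452. Without control embryo 2 the ventral controls hold at most 2.76 CPM. Its exons share 14.1% of their bases with Nt5c2 on the other strand.

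Nefh, the heavy chain, which appears late as axons mature, lies at chr11:4938754-4948064. It had 29.3 CPM in the dorsal piece of control embryo 2 and 1.45 CPM in the dorsal piece of mutant 4. All 9 axon libraries and all 9 ventral libraries were at 0, which allows up to 3 counts or 0.0883 to 0.229 CPM. The counts of the neurofilament genes in the axon pieces thus came mostly from Nefm, at 767 to 1757 CPM, with Nefl at 0 to 82.0 CPM.

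Mapt, the gene of tau, lies at chr11:104231390-104332090. Its counts were scarce even in the axon pieces, where control 2 had 24.4 CPM, mutant 1 had 30.3 CPM and the other 7 libraries were at 0. Dorsal pieces had 1.37, 95.3, 0 and 0.135 CPM in controls and 0, 4.47, 0, 0 and 0.0665 CPM in mutants. Among ventral pieces control 2 had 284 CPM, mutant 4 had 5.37 CPM, and 7 were at 0. No comparison of Mapt passed in edgeR.

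Map2, the microtubule-associated protein of cell bodies and dendrites, lies at chr1:66175273-66442583. Control axon pieces had 95.3, 24.8, 0.596 and 48.2 CPM, and mutant axon pieces had 0.343, 0.171, 0, 4.26 and 0.311 CPM. Control 3 lay below mutant 4, so the groups overlapped by 1 library. In ventral pieces the levels were 3.83, 182, 0.514 and 22.2 CPM in controls and 28.6, 10.6, 21.6, 17.4 and 16.6 CPM in mutants. Dorsal pieces had 43.9, 182, 17.1 and 30.3 CPM in controls and 21.01, 27.6, 0, 76.1 and 28.2 CPM in mutants. In mutants every axon library was below every ventral library, which held for 409 of 16330 genes (2.5%), and each embryo except mutant 3, with 0 in both pieces, had less in the axon piece than in the dorsal piece.

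Map2 in mutant axon pieces differed from that in control axon pieces by -3.71 in mean log2(CPM + 1), with an exact permutation p of 0.0238, and of 0.05 when libraries were permuted only within batches, where 0.025 is the smallest possible. The difference was -3.61 without control embryo 2 (exact permutation p = 0.0357). edgeR gave -5.94 ± 2.72 log2 with an adjusted p of 0.88, and DESeq2 an adjusted p of 0.0142. The pigment cell markers in these axon pieces summed to 50.7 to 640 CPM in controls and 170 to 1279 CPM in mutants (median 110 and 886 CPM), and the number of detected genes was 10076 to 14118 and 9225 to 11358. Their part in the result was not tested. Between axon and ventral pieces of mutants the log2 difference of Map2 was -4.07 ± 2.09 (edgeR adjusted p = 0.286, DESeq2 0.00637, limma voom 0.0376), with an exact permutation p of 0.00794. Axon against dorsal pieces of mutants gave -4.77 ± 2.31 (edgeR adjusted p = 0.232, DESeq2 0.0276).

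Dcx, doublecortin, which stabilises microtubules in migrating newborn neurons, lies at chrX:143855842-143933311. Control axon pieces had 2.78, 47.0, 0 and 0 CPM, and mutant axon pieces had 36.0 CPM in embryo 1 and 0 in the 4 others. Dorsal pieces had 0.0416, 365, 73.8 and 0 CPM in controls and 0, 0.238, 0, 29.8 and 18.6 CPM in mutants. Ventral pieces were at 0 in 7 of 9 libraries, with 181 CPM in control 2 and 0.426 CPM in mutant 1. The 3 highest libraries all came from controls, and 2 of them from embryo 2.

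Gap43, the growth-associated protein of extending axons, lies at chr16:42248442-42340651. Control axon pieces had 50.7, 176, 199 and 114 CPM. Mutant axon pieces had 0, 98.7, 198, 100.5 and 196 CPM, so that the genotypes overlapped apart from mutant 1. Dorsal pieces had 0.998, 268, 164 and 13.2 CPM in controls and 17.4, 50.9, 4.03, 41.5 and 32.2 CPM in mutants. Ventral pieces had 23.6, 207, 32.9 and 11.5 CPM in controls and 0, 11.4, 68.1, 8.78 and 0 CPM in mutants. In 4 of the 5 mutant embryos the axon piece exceeded both other pieces of the embryo, but the tests did not pass (edgeR adjusted p = 0.342 against dorsal and 0.457 against ventral).

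Stmn2, a tubulin-sequestering protein of growth cones, lies at chr3:8509360-8561606. Control axon pieces had 254, 145, 95.7 and 96.6 CPM, and mutant axon pieces had 0, 39.9, 95.7, 288 and 0 CPM. Thus 3 of 5 mutants were below all controls, while mutant 4 was above them. Dorsal pieces had 0, 184, 101 and 0 CPM in controls and 0, 65.8, 0, 116 and 16.9 CPM in mutants. Ventral pieces had 13.4, 383, 0 and 21.1 CPM in controls and 55.2, 76.6, 0, 0 and 0 CPM in mutants. No edgeR comparison of Stmn2 passed, and DESeq2 called it in the ventral genotype comparison (adjusted p = 0.0024), but not without control embryo 2 (0.0528).

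The genotypes were compared within each kind of piece, with batch as a term. Axon, dorsal and ventral controls, which are arms of the contrasts that helped to choose the members, take part in these comparisons and in those of the mutant effects. edgeR called 0 of the 9 members in the dorsal pieces, where 0.0124% of 16145 genes were called, 0 in the ventral pieces, where 0% of 16139 genes were called, and 0 in the axon pieces, where 0% of 14977 genes were called. At an unadjusted p under 0.05 it gave 0, 1 (Ina) and 2 members (Map1b and Map2), where 5.35%, 3.19% and 3.55% of all genes passed. DESeq2 called 0, 1 (Stmn2) and 2 (Ina and Map2), with 3.39%, 2.08% and 8.32% of all genes called. limma voom called 0 in each, with 0.421%, 0.031% and 0.354% of all genes called. Without control embryo 2 edgeR again called 0 members in each kind of piece, and 0 between dorsal and ventral pieces of controls. It called 0.00626%, 0% and 0% of all genes in the genotype comparisons. At an unadjusted p under 0.05 it gave 2, 0, 0 and 1 members. In the genotype comparisons 4.21%, 2.47% and 2.54% of all genes passed. DESeq2 then called 0, 0, 2 (Ina and Map2) and 1 (Nefm, lower in dorsal pieces). It called 4.15%, 2.32% and 8.85% of all genes in the genotype comparisons. limma voom called 0 members in each, with 0.4%, 0.0374% and 0.283% there. For dorsal against ventral pieces of controls the share of all genes is not given.

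For Nefm the mutant minus control log2 difference was 0.33 ± 0.24 in axon pieces (edgeR adjusted p = 0.895), 0.88 ± 0.56 in ventral pieces and 0.17 ± 2.14 in dorsal pieces. The dorsal value ranged from -1.03 to 1.95 with 1 library left out. Dorsal mutants had a mean of 39.1 CPM, and dorsal controls 34.3 CPM, or 8.18 CPM without control embryo 2. For Map1b the log2 difference was 0.50 ± 0.22 in axon pieces (unadjusted p = 0.0404, edgeR adjusted p = 0.88), 0.47 ± 0.41 in dorsal pieces and -0.29 ± 0.35 in ventral pieces. Without control embryo 2, a choice made after seeing the data, every dorsal mutant was above every dorsal control for Map1b, 1 of 10 members compared. The difference was 0.81 in mean log2(CPM + 1), with an unadjusted exact permutation p of 0.0357, against 0.468 with that embryo. edgeR did not call Map1b there (0.94 ± 0.32, adjusted p = 0.942). The share of all genes with such a separation is not given, so it is not read as particular to Map1b. The median log2 difference of all genes tested was -0.29 in axon pieces, -0.08 in ventral pieces and -0.04 in dorsal pieces.

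The mutant effects of 2 kinds of piece were also compared directly in a model of all 27 libraries. edgeR called 0 members for dorsal against ventral (0.00612% of 16330 genes called), 0 for dorsal against axon (0.0245%) and 0 for ventral against axon (0.00612%). Only Map2 had an unadjusted p under 0.05, for dorsal against axon, with an edgeR difference of 5.11 ± 2.43 log2 (adjusted p = 0.406), where 7.39%, 11.7% and 10.4% of all genes passed in these comparisons. DESeq2 called 1 member, Nefl for ventral against axon, with 3.61%, 9.09% and 8.49% of all genes called, and limma voom called 0, with 0.0367%, 0.325% and 0.098%. Without control embryo 2 edgeR called 0 members for each of these differences, with 2, 2 and 1 at an unadjusted p under 0.05, and limma voom called 0. DESeq2 then called Ina for dorsal against ventral, Ina and Map2 for dorsal against axon, and Map2 in place of Nefl for ventral against axon. For the fits without that embryo the share of all genes is not given, so nothing is read from these counts.

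Ratios of 2 members were compared within each library. The log2 ratio of Dcx to Nefm, each as CPM + 1, was -9.24 ± 2.70 in mutant axon pieces, -6.68 ± 0.84 in mutant ventral pieces and -1.96 ± 4.09 in mutant dorsal pieces (SD, n = 5). Axon against dorsal pieces gave an exact permutation p of 0.0238 and axon against ventral pieces 0.0476. The log2 ratio of Map2 to Mapt was -0.31 ± 2.56 in mutant axon pieces and 3.72 ± 1.32 in mutant ventral pieces, with an exact permutation p of 0.0159. After Benjamini-Hochberg adjustment over the 15 ratio tests made, the lowest value was 0.179, so none of the exact permutation tests passed. Dcx was at 0 in 4 of 5 axon and 4 of 5 ventral mutants, so that in those libraries the first ratio restates the level of Nefm. Mapt was at 0 in 4 of 5 libraries of each of these groups, where the second ratio restates the level of Map2.

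Control embryo 2 held the highest level outside the axon pieces for each of the 8 members other than Nefm and Map1b. Its dorsal piece had 10 and its ventral piece 9 of the 10 members above 10 CPM, against 1 to 7 members in the 16 other dorsal and ventral pieces. The sum of these 8 members was 1225 CPM in its dorsal and 1528 CPM in its ventral piece, against 4.03 to 372 CPM in the 16 others. Neuronal genes outside the set were also high in these pieces, with Isl1 at 127 and 145 CPM, Elavl3 at 67.0 and 100.4 CPM and Ebf1 at 348 and 158 CPM. In its axon piece Isl1 was at 3.20 CPM and Elavl3 at 16.4 CPM. The summed level of Nefm and Map1b in these pieces was 1018 and 777 CPM, against 207 to 832 CPM in the 16 others and 2084 to 5173 CPM in the axon libraries.

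**Figure D4:**
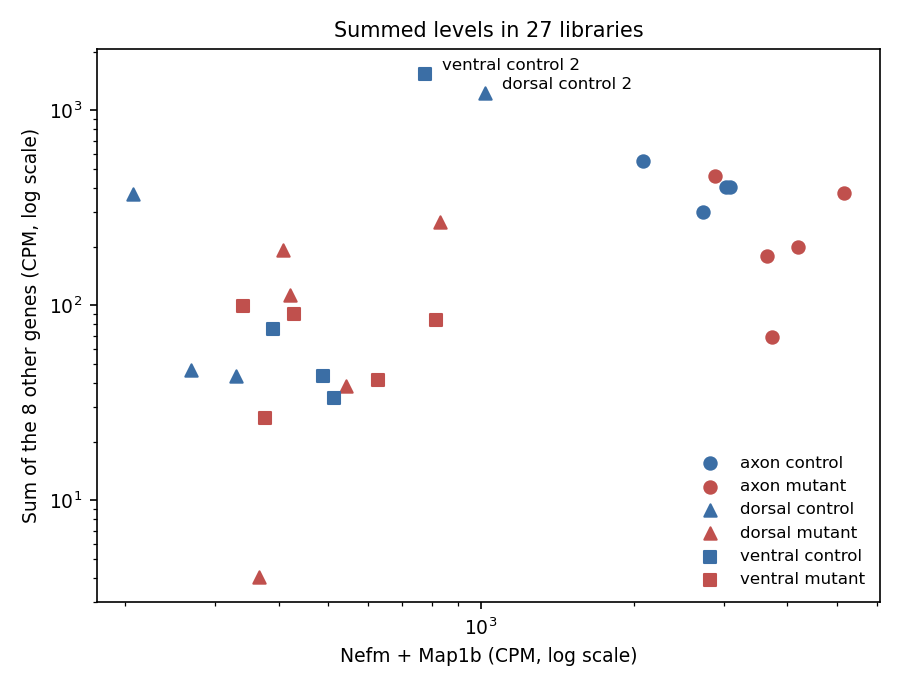
Summed CPM of Nefm and Map1b (horizontal, log scale) against the summed CPM of the 8 other genes (vertical, log scale) in each of the 27 libraries, by piece (shape) and genotype (colour). The 9 axon libraries lie to the right at 2084 CPM and above, and the dorsal and ventral pieces of control embryo 2 lie at the top with 1225 and 1528 CPM of the other genes.

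Across the 27 libraries, which share depth and group structure, Nefm and Map1b had a Pearson r of 0.775 on log2(CPM + 1). It was 0.771 over the 24 libraries without control embryo 2. With group means removed it was 0.261 and, without that embryo, -0.08. The closest pair among the sparse members was Mapt and Dcx, with r = 0.726, which was 0.286 without control embryo 2 and so rested on its 3 libraries. Map2 had r = -0.226 with Nefm and -0.37 with Map1b (-0.277 and -0.464 without control embryo 2). These values are descriptions with no test.

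Among 9004 genes with a mean of at least 10 CPM, the patterns most like the mean z-score of the 10 members were those of Tac1, a neuropeptide precursor (r = 0.758), Snap91, a clathrin coat factor of synapses (0.705), Isl1, a LIM homeodomain factor of RGCs and other neurons (0.697), Stmn3, a neuronal stathmin (0.697), and Tuba1a, the alpha-tubulin of young neurons (0.687), each over 27 libraries. With group means removed they were Isl1 (0.859), Tac1 (0.832) and Ncan, a neural proteoglycan (0.799). Most of this likeness rested on control embryo 2. Without its 3 libraries r was -0.059 for Tac1, 0.312 for Isl1 and 0.452 for Snap91, while Stmn3 and Tuba1a kept 0.542 and 0.584, and the highest value was that of Rpl39, a ribosomal protein gene (0.706). With group means removed, Isl1 then had 0.453, Ncan 0.302 and Tac1 0.121.

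For the mean z-score of Nefm and Map1b alone, a choice made after their values were seen, the most similar genes were Akap6, a kinase anchor (r = 0.876), Lhfpl4, an auxiliary protein of GABA receptors (0.854), Nes (0.842), Cplx2, a regulator of vesicle fusion (0.838), and Kif1a, an axonal kinesin (0.832). Without control embryo 2 these 5 had r of 0.836 to 0.872. Akap6 had a mean of 587 CPM in the 9 axon libraries and 36.2 CPM in the 18 others, and Kif1a 1742 and 201 CPM.

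A list of 25 other axonal cytoskeleton genes, covering further microtubule-associated proteins, stathmins, collapsin response mediators (the Dpysl family and Crmp1) and cortical proteins, set the background of the pathway. edgeR tested 24 of them, since Prph was filtered out, and called 0 in every comparison. In other edgeR fits Dpysl3 was called between axon and dorsal pieces of mutants with all 27 libraries, and without axon mutant 4 in both axon contrasts of mutants. DESeq2 called Stmn3 in the ventral and Map6 and Map7d2 in the axon genotype comparison, and Map7d2 between axon and ventral pieces of mutants, between dorsal and ventral pieces of mutants, and for the mutant effect of ventral against axon pieces. limma voom called Map7, Map7d2 and Stmn1 between axon and ventral pieces of mutants and 0 in the other comparisons. With control embryo 2 left out DESeq2 called Stmn3 in the dorsal in place of the ventral genotype comparison, and Map7d2 and Stmn4 in the axon one. At an unadjusted p under 0.05 edgeR gave 1 lower gene in the dorsal and 1 in the ventral genotype comparison, both Dpysl3, a microtubule-binding phosphoprotein of growth cones. Its log2 difference was -0.85 ± 0.29 in dorsal pieces (edgeR adjusted p = 0.918) and -0.64 ± 0.23 in ventral pieces (0.999). Axon pieces gave 2 lower genes, Map7d2, with counts in few libraries, and Dpysl2 at -0.90 ± 0.41 (edgeR adjusted p = 0.88). The medians of the list were -0.34, -0.51 and -0.76 log2 in dorsal, ventral and axon pieces, beside -0.04, -0.08 and -0.29 over all genes tested.

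Between pieces of mutants the estimates of the list were mixed in direction. Axon against dorsal pieces gave 12 genes with higher and 12 with lower estimates, a median of -0.11 beside -0.33 over all genes, and 2 genes at an unadjusted p under 0.05, Dpysl3 (1.24 ± 0.30, edgeR adjusted p = 0.0885) and Map4 (2.10 ± 0.67, adjusted p = 0.182), which is 2 of 24 beside 23.5% of all genes. Axon against ventral pieces gave 15 higher and 9 lower, a median of 0.21 beside -0.37, and 4 genes at an unadjusted p under 0.05, of which Dpysl3 (0.85 ± 0.23), Map4 (1.78 ± 0.54) and Stmn1 (0.57 ± 0.21) were higher and Map7d2 was lower, each with an edgeR adjusted p of 0.204 to 0.214, beside 21.8% of all genes. Dorsal against ventral pieces of mutants gave 1 such gene, Map7d2, those of controls gave 0, and each of the 3 comparisons of mutant effects gave 1. Stmn1, a ubiquitous stathmin of dividing and immature cells, was the most abundant of the list in the axon pieces, at 819 ± 97.3 CPM in controls and 800 ± 163 CPM in mutants.

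The newborn neuron markers were mostly at 0 in the axon pieces, where 7 of 12 were at 0 in controls and 8 of 12 in mutants, among them Neurog1, Neurod1, Neurod4, Atoh7 and Insm1. In the dorsal pieces of mutants 11 of 12 had counts and their sum was 182 to 1029 CPM, against 5 of 12 and 0.807 to 145 CPM in dorsal controls. Ventral mutants also had counts for 11 of 12, with 37.1 to 380 CPM, against 7 of 12 and 13.4 to 259 CPM in ventral controls. In the dorsal mutants Dcx, Stmn2 and Ina had counts in 3, 3 and 4 of 5 libraries. Their means there were 9.73, 39.7 and 8.62 CPM. In dorsal controls the means were 110, 71.4 and 21.4 CPM, or 24.6, 33.8 and 0 CPM without control embryo 2. The part of these cells in the levels of the 10 genes was not tested.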

How the data were processed

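Total RNA of 27 laser-captured optic stalk pieces was amplified as cDNA (Geo-seq with Smart-Seq2) and sequenced as single-end reads. The deposited table holds unscaled counts of reads for each gene, made by the authors in the Seq2Science pipeline at default settings, with STAR on mm10 and HTSeq. Tool versions, annotation release and strand setting are not given in the sources used here. Gene names and positions came from GENCODE M21 through the gene IDs without version, and 55227 of 55487 matched.

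CPM are counts divided by the library total of 10.9 to 34.0 M. The main test was the quasi-likelihood F-test of edgeR 4.0.16 in R 4.3.3 (two-sided, TMM scaling, robust) on the 16330 genes that exceeded 10 counts in 3 or more libraries. Batch was a term in genotype and interaction fits. A call needed a Benjamini-Hochberg adjusted p under 0.05 over all genes tested and an absolute log2 fold change over 0.58. Single genes were also compared by exact permutation on log2(CPM + 1), with p-values not adjusted for the number of members and comparisons. Between pieces of mutants the main exact permutations, of genes and of ratios, did not keep the pieces of an embryo together. Alternatives were DESeq2 1.42.0, limma 3.58.1 (voom), RLE scaling, no filter, no batch term, batch B alone, all 27 libraries in 1 fit, a replicate block, other pseudocounts and each library left out. Fits, exact tests and correlations without control embryo 2 and region fits within a batch were chosen after seeing the data. The steps were tested on simulated data.

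The members and gene lists were chosen with earlier results of these data known. The text names all members and Smarcc1. From the list of other axonal cytoskeleton genes it names those called and up to 3 with the smallest unadjusted p per comparison, from marker lists those at 0 (1 gene is not reported here) and the most abundant, and the 5 and 3 genes of most similar pattern. Pieces of 1 embryo share its number in the labels, and the study took all pieces from the same animal. The correlation of their deviations from group means was -0.019 to 0.115. Numbers shared between genotypes are names only. The labels name separate embryos, and in genotype comparisons within 1 kind of piece the p-values measure the spread between them. Comparisons between pieces and of mutant effects, without the embryo as a block, treat pieces of 1 embryo as separate libraries. Their p-values measure the spread between libraries.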

Additional observations from a re-analysis of the deposited data

Results flagged for a closer look

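Each gene was examined in each group for a library whose gap to the nearest other library took up most of the range of the group (Dixon's criterion). Of 56 gene and group combinations 26 met it, where chance gives about 1 in 20 for values with a normal spread. In 13 of the 26 every other library of the group was at 0, so that the gap equals the range by construction and this rate does not apply.

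The dorsal piece of control embryo 2 stood above the other dorsal controls for Nefm at 112.8 CPM, Nefh at 29.28, Ina at 85.42, Map1b at 905.0, Mapt at 95.35 and Map2 at 181.5 CPM. The ventral piece of the same embryo did so for Ina at 196.3 CPM, Mapt at 283.8, Map2 at 181.8, Gap43 at 207.5, Stmn2 at 383.3 and Dcx at 181.3 CPM. Its axon piece did so for Mapt at 24.44 and Dcx at 46.97 CPM. Thus 14 of the 26 came from this 1 embryo.

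Among mutant axon pieces, embryo 1 stood above the others for Mapt at 30.33 CPM and Dcx at 36.0 CPM, embryo 3 for Ina at 0.272 CPM and embryo 4 for Map2 at 4.261 CPM. Among mutant dorsal pieces, embryo 2 did so for Nefl at 21.7 CPM and Mapt at 4.471 CPM, and embryo 4 for Map1b at 830.2 CPM and Nefh at 1.448 CPM. Among mutant ventral pieces, embryo 1 did so for Dcx at 0.426 CPM, embryo 3 for Gap43 at 68.07 CPM and Ina at 0.3531 CPM, and embryo 4 for Mapt at 5.367 CPM.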

How the results depend on the processing

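Over 44 results, 582 of 640 alternative values were taken as kept, and 58 were not. An estimate was kept if its direction and side of the threshold held. A count of members was kept if it was equal or close, whichever members it held. With DESeq2 the number of members called changed to 1 (ventral genotype) and 2 (axon genotype). DESeq2 also gave 4 (axon against dorsal in mutants) and 1 (mutant effect ventral against axon). Fitting all 27 libraries together gave 2 for axon against dorsal and 1 for axon against ventral in mutants. The shares of all genes called were then 0.882% and 0.631%. For axon against ventral the number was 1 with limma voom (Map2) and 1 in batch A alone, where 0.0402% of all genes were called. In batch B alone the number was 0 for either axon contrast, with 0% of all genes called. For axon against ventral in mutants DESeq2 called 3, with Map2 added. For axon against dorsal limma voom also called 1, but Nefl in place of Map1b. DESeq2 without control embryo 2 called 2 (axon genotype), 1 (dorsal against ventral in controls) and 1, 2 and 1 (mutant effects dorsal against ventral, dorsal against axon and ventral against axon). Apart from the axon genotype comparison the share of all genes is not given for these fits, so nothing is read from their counts. Leaving out 1 library gave 1 to 2 members for axon against dorsal in mutants, the higher count without dorsal mutant 3, where 0.403% of all genes were called. The exact permutation test of members in the axon genotype comparison gave 0 at p under 0.05 within batches, where 1 passed otherwise, and that in dorsal pieces gave 1 (Map1b) without control embryo 2. For axon against ventral in mutants 4 of 10 members had an unadjusted p under 0.05, and 3 (without Nefl) with either other pseudocount or within batches. For axon against dorsal 3 of 10 had such a p, 4 with a pseudocount of 0.1 (Nefl added) and 2 within batches (without Map2). The share of all genes is not given for these exact permutation tests, so nothing is read from their counts of members. In genotype comparisons the replicate block joined controls and mutants by embryo number, which is a name only, so its estimates there rest on an arbitrary pairing. With that block Map1b in ventral pieces turned from -0.29 to 0.61 and Nefm in axon pieces from 0.33 to -0.26, both uncalled. The replicate block changed no call of a member. Nefm in dorsal pieces was -0.64 with limma voom and -0.86 in batch B alone, and -1.03 to 1.95 with 1 library left out (below 0 without control 1, 3 or 4 or mutant 1 or 5). Among the log2 ratios, Map2 to Mapt in dorsal pieces was -0.011 with a pseudocount of 5 and -0.82 to 0.94 with 1 library left out, Nefm to Nefl was -0.34 (axon genotype) and -1.33 (axon against ventral in mutants) with a pseudocount of 0.1, and with 1 library left out -0.25 to 1.73 in dorsal pieces, -0.30 to 1.91 in axon pieces and -0.039 to 1.11 for axon against ventral in mutants. Dcx to Nefm in the axon genotype comparison was -2.44 to 0.097 with 1 library left out, highest without control 2. Nefm between axon and ventral pieces of mutants lost its edgeR call with all 27 libraries (adjusted p = 0.131), in batch A (0.219) and in batch B (0.156), as with limma voom (0.407). The cause was not tested. Over all genes, edgeR called 2, 0 and 0 in the genotype comparisons and 86 and 70 between axon and other pieces of mutants, DESeq2 called 547, 335, 1246, 1569 and 1340, and limma voom 68, 5, 53, 727 and 601. RLE scaling moved the median of all genes most for axon against dorsal in mutants, from -0.33 to -0.43 log2, and changed no member's call. With 4 or 5 libraries a group and many at 0, the smallest SE among the 7 sparse members tested was 1.25 log2 (Gap43, axon against dorsal in mutants).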
